A study of Homo sapiens with 4 samples.

Results

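Long intergenic noncoding RNAs, or lincRNAs, are transcripts of genes that lie between protein-coding genes and carry no long open reading frame. They were described here in cultured cells of the human renal clear cell carcinoma line 769-P. The members were chosen by their annotation and their measured level, as the rows whose annotated gene type was lincRNA and whose mean over all 4 libraries was at least 1 FPKM, the number of fragments per kilobase of a gene after scaling by library size. The rule took in 306 of the 7629 lincRNA rows, of which 2591 had a mean above 0 FPKM. The whole table held 58735 genes, and 12029 of them, the 306 lincRNAs included, reached the same level and entered the test.

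The cells carried a stably transfected, doxycycline-inducible short hairpin RNA against USP35, a deubiquitinating enzyme. The background of this carcinoma line was otherwise given as wild-type, and the cells were kept in puromycin. There were 2 libraries from cells given 1 µg/ml doxycycline for 4 days to switch on the hairpin, and 2 libraries from untreated cells of the same kind. Both groups carried the hairpin construct, and no library of doxycycline without the hairpin was analysed here, so an effect of the drug and one of the hairpin cannot be told apart. Whether the replicates were grown apart is not stated in the labels, so every p-value rests on the spread between libraries that may be technical copies. The cells were a bulk culture, in which fewer cells of a kind and less RNA per cell cannot be told apart.

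LincRNAs act in several ways. Some build nuclear bodies, some hold RNA-binding proteins, and some are spliced only to release small nucleolar RNAs or microRNAs from their introns or exons. Many others have no known role, start close to a coding gene, and are low and unstable because the nuclear exosome removes them. Those with established functions are therefore described first, in the order of what they do, and the unnamed ones after them.

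The libraries held 17481827 and 18764546 reads with doxycycline and 16319640 and 17244546 in untreated cells, recovered from the steps of the FPKM values. USP35 stood at 2.11 and 2.54 FPKM with doxycycline, against 3.31 and 4.19 FPKM in untreated cells, a log2 difference of -0.51 ± 0.20 (SE) that did not pass (limma adjusted p = 0.256). Of 7 renal carcinoma and tubule markers, 6 were expressed, with PAX8, a renal lineage factor, between 38.5 and 53.9 FPKM in the 4 libraries. CA9, an enzyme usually raised in this tumour type, lay at or below 0.0377 FPKM in each library. The 7 markers summed to 505 and 468 FPKM with doxycycline and 718 and 588 FPKM in untreated cells. Most of each sum was VIM, at 351 and 328 FPKM with doxycycline and 502 and 380 FPKM in untreated cells. Of the 6 expressed markers, 4 lay below in both doxycycline libraries and 0 above (28.9% and 24.3% of all genes tested did so). The 5 fibroblast, 4 endothelial and 5 leukocyte markers summed to at most 0.804 FPKM per list in any library, and LUM, PECAM1, CDH5, KDR, CD3E and LYZ were among those at 0 in all 4. Mitochondrially encoded genes took 7.44% and 14.6% of reads with doxycycline, and 8.21% and 8.50% in untreated cells. A list of 16 interferon response genes stood apart between the doxycycline libraries, with a median of 4.53 above the untreated mean in replicate 1 and of 0.37 in replicate 2 (log2(FPKM + 1)).

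The 306 lincRNAs together took a larger share of the reads in each doxycycline library than in each untreated one. The sum includes 43 lincRNAs that reached 1 FPKM only in the doxycycline mean and 24 only in the untreated mean. Their direction was fixed by the choice, and the share was not computed without them. The shares were 0.404% and 0.332% with doxycycline, against 0.280% and 0.311% in untreated cells. The means of 0.368% ± 0.051 and 0.296% ± 0.021 (SD, n = 2 each) stood in a ratio of 1.25 (exact permutation p = 0.333, two-sided, the smallest that 2 against 2 libraries can give). The exact binomial 95% intervals of these shares, which cover counting error only, ran from 0.401% to 0.407% and from 0.329% to 0.335% with doxycycline, and from 0.278% to 0.283% and from 0.308% to 0.313% in untreated cells. Without the reads of mitochondrial genes the shares were 0.436% and 0.389% with doxycycline and 0.305% and 0.340% in untreated cells. Without NEAT1 and NORAD, the members with the most reads, they were 0.270% and 0.255% with doxycycline and 0.206% and 0.233% in untreated cells. The order of the groups was the same in all 3 versions, each of which kept MALAT1. MALAT1 alone took 0.0430% and 0.0420% of reads with doxycycline, and 0.0161% and 0.0168% in untreated cells. Taken out of the 306, it leaves doxycycline replicate 2 below untreated replicate 2, so the order rested on this RNA.

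Gene by gene, none of the 306 passed the limma test at an adjusted p under 0.05 over all genes tested, nor did any of the 12029 genes (0%), and the lowest adjusted p of a lincRNA was 0.0573. At an unadjusted p under 0.05, 40 lincRNAs were higher with doxycycline and 21 lower, where over all genes 6.47% were higher and 11.9% lower. Both doxycycline libraries lay above both untreated ones for 96 lincRNAs, or 31.4% (24.3% of all genes tested), and below both for 60, or 19.6% (28.9% of all genes). These 156 separated lincRNAs stand beside a background of 53.2% of genes separated in either direction, and the groups overlapped for the other 150. The median log2 difference of the lincRNAs was 0.11, with 183 positive and 123 negative, beside -0.03 over all genes, -0.03 over the 10228 protein-coding genes and 0.03 over the 388 antisense genes tested. Taken singly, doxycycline replicates 1 and 2 gave lincRNA medians of 0.10 and 0.09 above the untreated mean. The call rested on which libraries were entered: without doxycycline replicate 1 limma called 92 lincRNAs (55 higher, 37 lower), without doxycycline replicate 2 it called 51 (35 higher, 16 lower), and without either untreated library 0. Over all genes tested the same fits called 3942 and 1605, so the 30.1% and 16.7% of lincRNAs called stood beside 32.8% and 13.3% of all genes. In those fits the lone doxycycline library is assumed to vary like the untreated pair. On recovered reads, limma-voom with library totals also called 0.

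**Figure D1:**
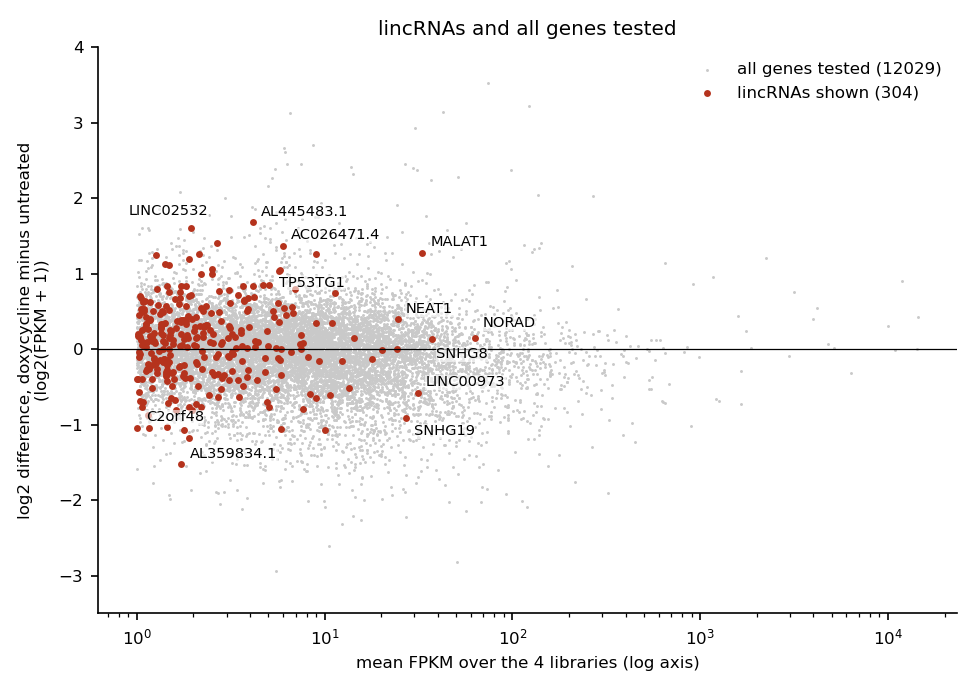
Log2 difference, doxycycline minus untreated on the log2(FPKM + 1) scale, against the mean FPKM over the 4 libraries on a log axis, for all 12029 genes tested (grey) and 304 lincRNAs (red), each point 1 gene. MALAT1, at a log2 difference of 1.28, has the largest difference of the lincRNAs above 20 FPKM, and most lincRNAs sit at the low end of the level axis.

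Because the rule took a mean over both groups, some members entered through 1 group. For 43 lincRNAs only the doxycycline mean reached 1 FPKM, and for 24 only the untreated mean did, so their direction was fixed by the choice and says nothing more. Among the 239 with both means at 1 FPKM or more, 68 lay above in both doxycycline libraries (28.5%, beside 24.3% of all genes) and 41 below (17.2%, beside 28.9%), with a median log2 difference of 0.08. At an unadjusted limma p under 0.05, 27 of the 239 were higher and 11 lower, where over all genes 6.47% were higher and 11.9% lower. At the threshold, the last lincRNAs inside were C2orf48 and C1orf220, with means of 1.01 and 1.00 FPKM. The first outside were LINC01806 and AL138781.1, with means of 0.998 and 0.996 FPKM.

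The class was low and thinly read. The median lincRNA had a mean of 1.90 FPKM and 46.8 reads per library, and the extremes were 3.8 and 9936 reads. By level, 159 lay under 2 FPKM, 50 reached 5 FPKM and 16 reached 10 FPKM. A mean of 100 reads was reached by 95 lincRNAs, while 78 had under 20. Gene lengths ran from 168 to 28487 bases with a median of 1194, and 125 genes were annotated as a single exonic block. Only clone-based names, such as AC026471.4, were carried by 194 of the 306. The replicates of a group differed by a median of 0.33 (log2(FPKM + 1), absolute) with doxycycline and 0.23 in untreated cells, beside 0.32 and 0.16 over all genes tested. For the 95 lincRNAs with at least 100 reads the median difference was 0.30 with doxycycline and 0.12 in untreated cells, and for the other 211 it was 0.35 with doxycycline and 0.30 in untreated cells. A difference of at least 1 between replicates was seen for 25 lincRNAs with doxycycline and 8 in untreated cells.

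**Figure D2:**
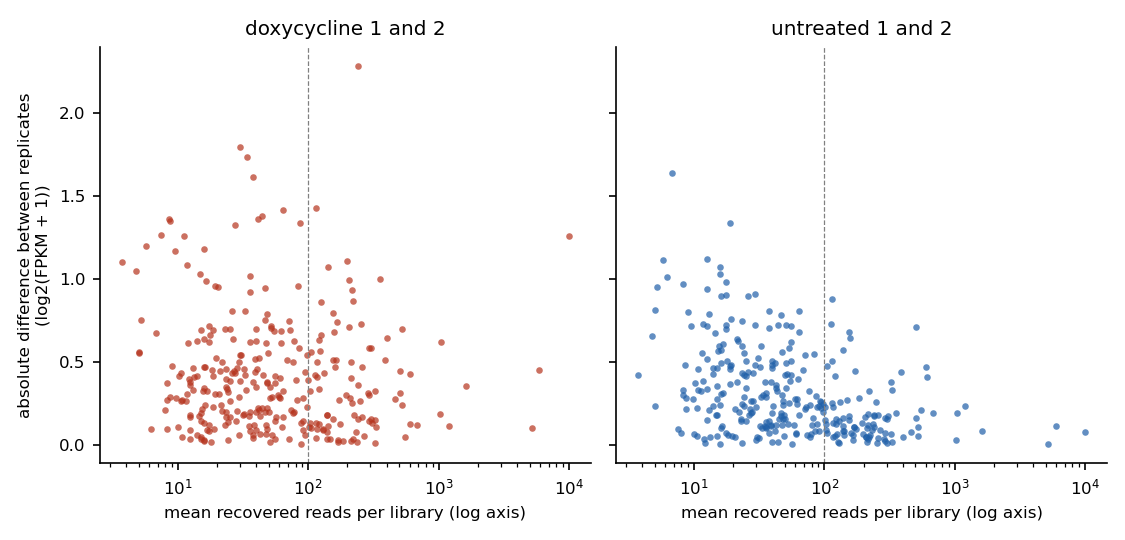
Absolute difference between the 2 replicates of a group on the log2(FPKM + 1) scale against the mean recovered reads per library on a log axis, doxycycline on the left and untreated on the right, each point 1 of 304 lincRNAs, with a dashed line at 100 reads. The untreated pair drew together above 100 reads, while with doxycycline NEAT1, the point with the most reads (9936 on average), still differed by 1.26.

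MALAT1 (ENSG00000251562, chr11:65497688-65506516, plus strand) is a single-exon RNA of nuclear speckles, the bodies that store splicing factors. NEAT1 (ENSG00000245532, chr11:65422774-65445540, plus strand) lies beside it and is the scaffold on which paraspeckles assemble. Neither ends in an ordinary poly(A) tail in its long form: both close with a pair of U-rich stretches that fold around an A-rich tract into a triple helix. Near their ends they share runs of at least 8 letters in the same order, TTTCTTTT, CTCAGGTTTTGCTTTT and AAAAAGCAAAA on the transcript strand, and no other member transcript searched held all 3. The ends are shown because the 2 RNAs, alike in this element, differed in their values, with the shared runs in capitals (GENCODE 29, GRCh38, plus strand, chr11:65506028-65506116 and chr11:65445450-65445540).
MALAT1: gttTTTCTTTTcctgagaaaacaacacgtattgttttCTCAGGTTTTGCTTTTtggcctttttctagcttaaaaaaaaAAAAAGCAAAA
NEAT1: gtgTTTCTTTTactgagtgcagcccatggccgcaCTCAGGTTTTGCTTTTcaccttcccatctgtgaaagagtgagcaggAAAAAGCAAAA

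MALAT1 stood at 45.3 and 48.7 FPKM with doxycycline, against 18.8 and 18.8 FPKM in untreated cells. These levels rested on 7515 and 7876 reads with doxycycline and 2627 and 2893 reads in untreated cells. Both doxycycline libraries lay well above both untreated ones, and the replicates of each group lay close together. The group means stood in a ratio of 2.5, and the log2 difference was 1.28 ± 0.19 (SE), just outside the threshold (limma adjusted p = 0.0591). When only genes of at least 5 FPKM were tested, it passed (limma adjusted p = 0.0277). NEAT1 stood at 41.4 and 16.7 FPKM with doxycycline, against 20.5 and 19.3 FPKM in untreated cells. Only doxycycline replicate 1 was high, and replicate 2 lay below both untreated libraries. The difference from the untreated mean was 1.02 in replicate 1 and -0.24 in replicate 2, so that the pooled value of 0.39 ± 0.41 (SE) rested on 1 library (limma adjusted p = 0.629). Replicate 1 was also the library with the high interferon response genes, whose part in the result was not tested. The genes are annotated as single blocks, so the short and the long form of NEAT1 were not told apart.

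The mRNAs of proteins that sit in paraspeckles stood lower with doxycycline. In a list of 11, both doxycycline libraries lay below both untreated ones for all 11 (28.9% of all genes tested did so). Their median log2 difference was -0.57, and 6 had an unadjusted limma p under 0.05 (11.9% of all genes were lower at that level), though 0 passed after adjustment. SFPQ, a splicing factor that binds NEAT1, stood at 34.7 and 34.2 FPKM with doxycycline, against 78.0 and 67.6 FPKM in untreated cells (log2 difference -1.05 ± 0.21 SE, limma adjusted p = 0.0851). NONO, the partner of SFPQ, had the smallest difference of the 11, at 79.4 and 86.7 FPKM with doxycycline and 98.8 and 98.1 FPKM in untreated cells. SFPQ and NONO were chosen after their values were seen.

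**Figure D3:**
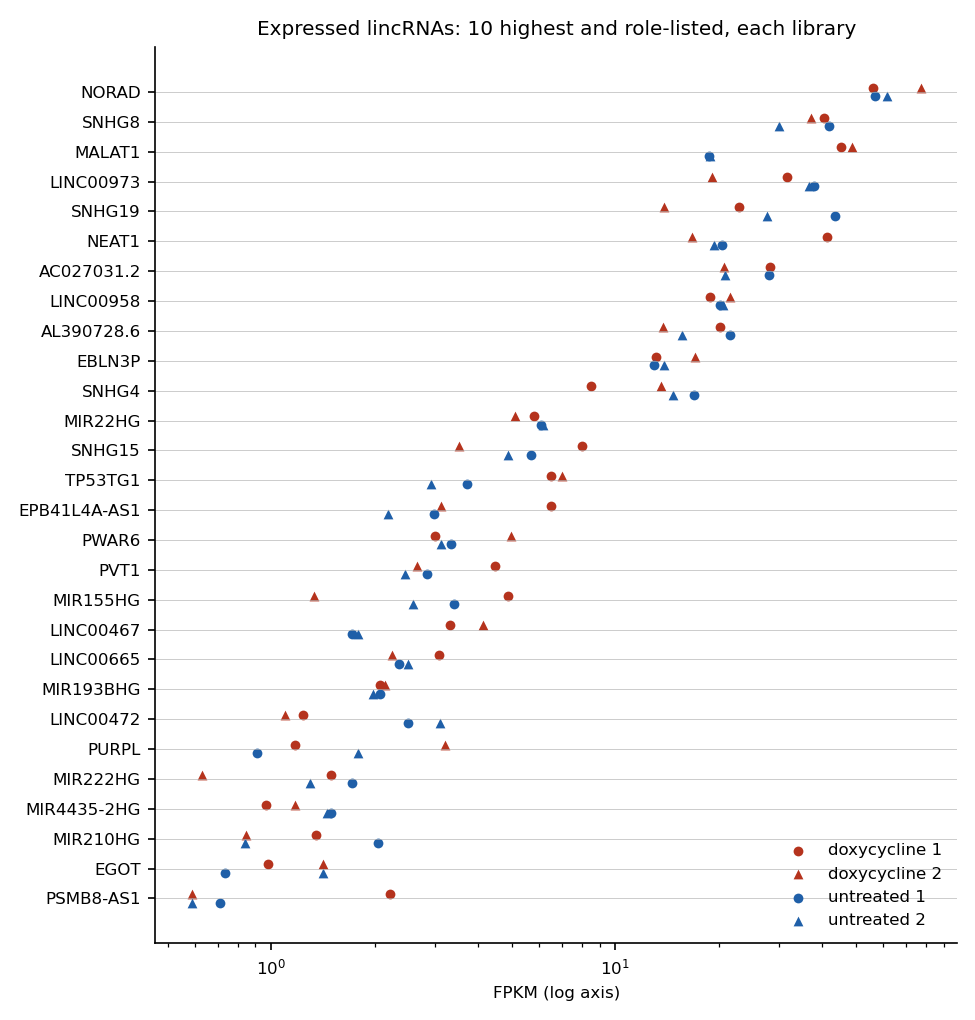
FPKM on a log axis in each of the 4 libraries for the 10 most abundant lincRNAs and those with a listed role, ordered by mean level, doxycycline in red and untreated in blue, with circles for replicate 1 and triangles for replicate 2. For MALAT1, TP53TG1 and LINC00467 the red points lie to the right of the blue ones with each pair close together, while for NEAT1 and PSMB8-AS1 a single red circle lies apart. PSMB8-AS1 reached 1 FPKM only in the doxycycline mean, which fixed its direction.

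NORAD (ENSG00000260032, chr20:36045622-36050960, minus strand) was the most abundant member per length. It is a cytoplasmic RNA that is induced by DNA damage and holds the PUMILIO proteins, which silence mRNAs of mitosis and DNA repair. The binding letters TGTANATA were counted on the transcript strand. They occurred 15 times in NORAD, the next highest member had 7, and 267 of 305 member transcripts had none. The places where 2 of them lie within 12 bases are shown as the densest of its matches, with the matches in capitals (GENCODE 29, GRCh38, minus strand, chr20:36049497-36049525, chr20:36048300-36048328 and chr20:36047664-36047692).
NORAD pair 1: tatctgTGTATATAgTGTACATAaaggac
NORAD pair 2: ctatacTGTATATAtTGTATATAtaacgg
NORAD pair 3: gtgctgTGTATATAgTGTATATAagcgga

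NORAD stood at 56.2 and 77.2 FPKM with doxycycline, against 57.0 and 61.6 FPKM in untreated cells. Doxycycline replicate 1 lay below both untreated libraries and replicate 2 above them, so the groups overlapped. The log2 difference was 0.15 ± 0.25 (SE, limma adjusted p = 0.766).

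The other lincRNAs linked to p53 and DNA damage were TP53TG1, PURPL and PVT1, with NEAT1 in the same list. Of the 5, 1 lay above in both doxycycline libraries (24.3% of all genes did so) and the other 4 overlapped, with a median log2 difference of 0.39. TP53TG1 (ENSG00000182165, chr7:87325225-87345515, minus strand), a target of p53 that binds the factor YBX1, was the one that lay above. It stood at 6.5 and 6.99 FPKM with doxycycline, against 3.70 and 2.92 FPKM in untreated cells. The replicates of each group lay close together, with a ratio of group means of 2.04 and a log2 difference of 0.85 ± 0.19 (SE, limma adjusted p = 0.104). PURPL, an RNA that lowers p53 itself, stood at 1.17 and 3.21 FPKM with doxycycline and 0.908 and 1.78 FPKM in untreated cells, and replicate 2 was the higher in both groups. PVT1, which lies 53099 bases from MYC, stood at 4.48 and 2.65 FPKM with doxycycline and 2.83 and 2.45 FPKM in untreated cells.

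TP53TG1 starts 166 bases from CROT, a peroxisomal carnitine acyltransferase gene on the other strand. Both genes were higher in both doxycycline libraries. CROT stood at 3.77 and 4.11 FPKM with doxycycline and 2.87 and 2.79 FPKM in untreated cells, a log2 difference of 0.37 ± 0.17 (SE, limma adjusted p = 0.323). The stretch they share is shown as the RefSeq promoter of TP53TG1 (GRCh38.p14, chr7:87345443-87345742, minus strand), with the bases between the 2 annotated starts in capitals.
TP53TG1 promoter: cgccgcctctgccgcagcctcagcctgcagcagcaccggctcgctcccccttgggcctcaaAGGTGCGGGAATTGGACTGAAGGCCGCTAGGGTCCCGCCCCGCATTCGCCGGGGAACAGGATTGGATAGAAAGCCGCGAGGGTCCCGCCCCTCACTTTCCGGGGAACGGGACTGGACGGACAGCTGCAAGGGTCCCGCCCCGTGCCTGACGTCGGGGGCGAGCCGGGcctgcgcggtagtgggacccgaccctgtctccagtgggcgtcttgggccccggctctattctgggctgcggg

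Of the 5 members linked to hypoxia, stress or interferon, none was separated between the groups. Their median stood at 0.57 in doxycycline replicate 1 and -0.24 in replicate 2, both log2 differences from the untreated mean. PSMB8-AS1 (ENSG00000204261, chr6:32844086-32846495, plus strand) lies in the antigen-processing cluster and shares 618 exonic bases with PSMB8, an immunoproteasome subunit on the other strand. It stood at 2.21 and 0.588 FPKM with doxycycline, against 0.711 and 0.589 FPKM in untreated cells. Replicate 1 alone was high, and the difference from the untreated mean was 0.96 in replicate 1 and -0.05 in replicate 2. PSMB8-AS1 reached 1 FPKM only in the doxycycline mean, through replicate 1, so its direction was fixed by the choice. The medians of the 5 members include it. PSMB8 stood at 31.8 and 14.8 FPKM with doxycycline and 21.2 and 15.1 FPKM in untreated cells, and without strand the 2 cannot be told apart over the shared bases. PSMB9 starts within the span of PSMB8-AS1 on the same strand, so strand would not separate any exonic bases shared by PSMB9 and PSMB8-AS1. It stood at 10.8 and 1.28 FPKM with doxycycline and 4.66 and 3.81 FPKM in untreated cells, and was chosen after its values were seen. TAP1, the peptide transporter gene next to them, stood at 29.5 and 6.34 FPKM with doxycycline and 8.87 and 8.57 FPKM in untreated cells, and was chosen after its values were seen.

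The RefSeq promoter of PSMB8-AS1 (GRCh38.p14, chr6:32843836-32844135, plus strand) is shown because 1 library with a high interferon list also had this RNA high. A link between them was not tested. The stretch lies within PSMB8 and ends just before the annotated start of PSMB9 on the plus strand. Nothing in it can therefore be assigned to PSMB8-AS1 alone. The letters GAAANNGAAA, the core of the interferon-stimulated response element, were searched on both strands and are in capitals. They were held by 3.57% of the 35116 promoters of 300 bases in the table, and by 8 of the 77 lincRNAs that the table covered, among them also MIR155HG and LINC01781. The first share counts promoters and the second counts lincRNAs with at least 1 such promoter, so they are not like for like. MIR155HG was higher in doxycycline replicate 1 than in replicate 2, and LINC01781 the other way round.
PSMB8-AS1 promoter: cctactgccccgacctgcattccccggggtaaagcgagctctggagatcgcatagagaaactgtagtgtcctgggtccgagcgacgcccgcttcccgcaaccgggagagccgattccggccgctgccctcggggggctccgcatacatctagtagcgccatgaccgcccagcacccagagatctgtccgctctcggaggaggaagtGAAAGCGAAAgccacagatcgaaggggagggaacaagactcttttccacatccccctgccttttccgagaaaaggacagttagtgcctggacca

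MIR155HG, the host of a microRNA of inflammation, stood at 4.89 and 1.33 FPKM with doxycycline and 3.39 and 2.58 FPKM in untreated cells. Its doxycycline libraries lay on either side of the untreated pair. MIR210HG, the host of the main hypoxia microRNA, stood at 1.35 and 0.847 FPKM with doxycycline and 2.04 and 0.841 FPKM in untreated cells. EGOT, an RNA read from within ITPR1 on the other strand, stood at 0.981 and 1.42 FPKM with doxycycline and 0.732 and 1.41 FPKM in untreated cells. Neither of these low RNAs was separated between the groups.

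Of the 8 microRNA host lincRNAs, 1 lay above in both doxycycline libraries, 3 lay below (24.3% and 28.9% of all genes did so) and 4 overlapped, with a median log2 difference of -0.16. LINC00472, the host of miR-30a, stood at 1.24 and 1.09 FPKM with doxycycline, against 2.49 and 3.09 FPKM in untreated cells. Both pairs lay close together, and the log2 difference was -0.80 ± 0.20 (SE, limma adjusted p = 0.137). MIR22HG stood at 5.79 and 5.10 FPKM with doxycycline and 6.10 and 6.15 FPKM in untreated cells, and its partner WDR81, whose start lies 651 bases away, stood at 7.43 and 5.51 FPKM with doxycycline and 7.38 and 8.55 FPKM in untreated cells. MIR4435-2HG was also below in both doxycycline libraries, at 0.967 and 1.18 FPKM, against 1.49 and 1.46 FPKM in untreated cells. MIR193BHG, the one that lay above, differed by only 0.04 on the log2 scale. MIR222HG stood at 1.49 and 0.627 FPKM with doxycycline and 1.72 and 1.30 FPKM in untreated cells. The levels are those of the host RNAs, and the microRNAs themselves were not measured.

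The snoRNA hosts are read mainly for the small nucleolar RNAs in their introns, which guide the modification of ribosomal RNA, while the spliced hosts themselves are often removed by nonsense-mediated decay. Of the 5 annotated as lincRNA, 1 lay above in both doxycycline libraries, 2 lay below and 2 overlapped, beside 24.3% above and 28.9% below over all genes. SNHG19 (ENSG00000260260, chr16:2154797-2155358, minus strand) stood at 22.9 and 13.9 FPKM with doxycycline, against 43.5 and 27.5 FPKM in untreated cells. The groups were separated but the replicates of each did not lie close together, with a log2 difference of -0.92 ± 0.33 (SE, limma adjusted p = 0.233). TRAF7, a ubiquitin ligase gene whose start lies 340 bases away on the other strand, stood at 31.6 and 25.1 FPKM with doxycycline and 38.4 and 40.0 FPKM in untreated cells, so both members of the pair were lower.

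SNHG4, which lies within the span of MATR3, stood at 8.52 and 13.6 FPKM with doxycycline, against 16.9 and 14.7 FPKM in untreated cells. EPB41L4A-AS1 stood at 6.52 and 3.12 FPKM with doxycycline, against 2.98 and 2.18 FPKM in untreated cells, and shares 1659 exonic bases with EPB41L4A on the other strand. SNHG8, the second most abundant lincRNA, stood at 40.4 and 37.0 FPKM with doxycycline and 41.7 and 29.9 FPKM in untreated cells. SNHG15 stood at 7.99 and 3.50 FPKM with doxycycline and 5.70 and 4.88 FPKM in untreated cells. In 4 of the 5 hosts doxycycline replicate 1 was the higher of its pair, as it was for 6049 of all 12029 genes tested. The same was seen in 12 of 15 snoRNA hosts annotated with other noncoding types, of which 3 lay above in both doxycycline libraries and 4 below, or 20% and 26.7%. GAS5, one of those 15 and chosen after its values were seen, stood at 132 and 60.8 FPKM with doxycycline, against 54.3 and 42.7 FPKM in untreated cells.

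The mRNAs of factors that act on such RNAs lay on both sides, where 24.3% of all genes lay above and 28.9% below. Of 14 nonsense-mediated decay factors, 6 lay above in both doxycycline libraries and 2 below, with a median log2 difference of 0.05. Of 19 factors of the nuclear exosome and its adaptors, 2 lay above and 6 below, with a median of -0.20. Of 9 box C/D snoRNP factors, 1 lay above and 4 below, with a median of -0.25. None of these factors passed after adjustment (limma, lowest adjusted p = 0.192 in the exosome list).

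Of the remaining members with a listed role or a high level, LINC00467 and LINC00973 were separated between the groups. LINC00467, which encodes a small mitochondrial protein that binds ATP synthase, stood at 3.30 and 4.12 FPKM with doxycycline, against 1.71 and 1.78 FPKM in untreated cells. Its ratio of group means was 2.12 and its log2 difference 0.77 ± 0.19 (SE, limma adjusted p = 0.134). LINC00973, an RNA described in clear cell renal carcinoma, stood at 31.6 and 19.1 FPKM with doxycycline, against 37.9 and 36.5 FPKM in untreated cells. The doxycycline replicates lay far apart (log2 difference -0.58 ± 0.28 SE, limma adjusted p = 0.326).

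LINC00958, an RNA raised in several carcinomas, stood at 18.8 and 21.6 FPKM with doxycycline and 20.2 and 20.6 FPKM in untreated cells. LINC00665 stood at 3.07 and 2.24 FPKM with doxycycline and 2.35 and 2.5 FPKM in untreated cells. PWAR6, from the imprinted Prader-Willi region, stood at 2.98 and 4.97 FPKM with doxycycline and 3.33 and 3.12 FPKM in untreated cells. The other abundant RNAs were AC027031.2, AL390728.6 and EBLN3P, a transcript of an ancient bornavirus insertion, with mean levels in both groups between 13.4 and 24.4 FPKM. All of these overlapped between the groups.

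Among the lincRNAs without a known role, the clearest separation was seen for AC026471.4 (ENSG00000261474, chr16:31449535-31453493, minus strand). It stood at 10.4 and 7.78 FPKM with doxycycline, against 2.81 and 2.94 FPKM in untreated cells. Both doxycycline libraries lay well above the untreated pair (ratio of means 3.17, log2 difference 1.37 ± 0.20 SE, limma adjusted p = 0.0573), on 88 and 64 reads with doxycycline and 20 and 23 reads in untreated cells. AL445483.1 (ENSG00000260088, chr1:200669507-200694250, plus strand) had the largest positive difference of the 306. It stood at 7.95 and 5.71 FPKM with doxycycline, against 1.03 and 1.87 FPKM in untreated cells (log2 difference 1.68 ± 0.25 SE, limma adjusted p = 0.0587). It starts 462 bases from DDX59, a helicase gene on the other strand that stood at 4.92 and 4.58 FPKM with doxycycline and 4.05 and 3.57 FPKM in untreated cells, and shares 56 exonic bases with it.

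AC100847.1 stood at 5.2 and 3.52 FPKM with doxycycline, against 1.18 and 0.836 FPKM in untreated cells (log2 difference 1.40). AP001767.3 and AC068870.2 reached 1 FPKM only in the doxycycline mean, and their values are a description. AP001767.3 stood at 3.29 and 2.76 FPKM with doxycycline, against 0.723 and 0.790 FPKM in untreated cells, but 295 of its 436 bases overlap RAB30-AS1 on the other strand. AC068870.2 stood at 1.64 and 2.67 FPKM with doxycycline, against 0 and 0.738 FPKM in untreated cells, where a count of 0 allows up to 0.486 FPKM in the first untreated library. Its partner TLNRD1, an actin-bundling protein gene whose start lies 963 bases away, stood the other way, at 5.87 and 4.23 FPKM with doxycycline and 10.7 and 9.14 FPKM in untreated cells. These lincRNAs were separated, and each rested on fewer than 50 reads in any library.

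In some of the largest differences a single doxycycline library stood far above the other. LINC02532, AC116407.2 and LINC01023 reached 1 FPKM only in the doxycycline mean, which fixed their direction. LINC02532, a spliced RNA of chromosome 6, stood at 0.607 and 6.82 FPKM with doxycycline, against 0.0934 and 0.238 FPKM in untreated cells. It had 77 and 843 reads with doxycycline and 10 and 28 reads in untreated cells, so replicate 2 was higher than every other library by far. LINC01781 was likewise highest in replicate 2, at 6.75 and 19.9 FPKM with doxycycline, against 2.93 and 6.24 FPKM in untreated cells.

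The reverse was seen for AC116407.2, at 6.12 and 1.14 FPKM with doxycycline, against 0.806 and 0.467 FPKM in untreated cells. LINC01023 also stood highest in replicate 1, at 3.78 and 1.00 FPKM with doxycycline, against 0.578 and 0.263 FPKM in untreated cells. In replicate 1 the log2 difference from the untreated mean was 0.47 for LINC02532, 0.54 for LINC01781, 2.13 for AC116407.2 and 1.76 for LINC01023. In replicate 2 it was 2.75 for LINC02532, 1.97 for LINC01781, 0.40 for AC116407.2 and 0.50 for LINC01023. AC104257.1 and AL390719.2, also among the 5 with the widest doxycycline pair, stood at 3.62 and 0.333 FPKM and at 2.91 and 0.277 FPKM with doxycycline. Their untreated levels were 1.60 and 1.23 FPKM for AC104257.1 and 3.0 and 2.62 FPKM for AL390719.2, and neither was separated.

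**Figure D4:**
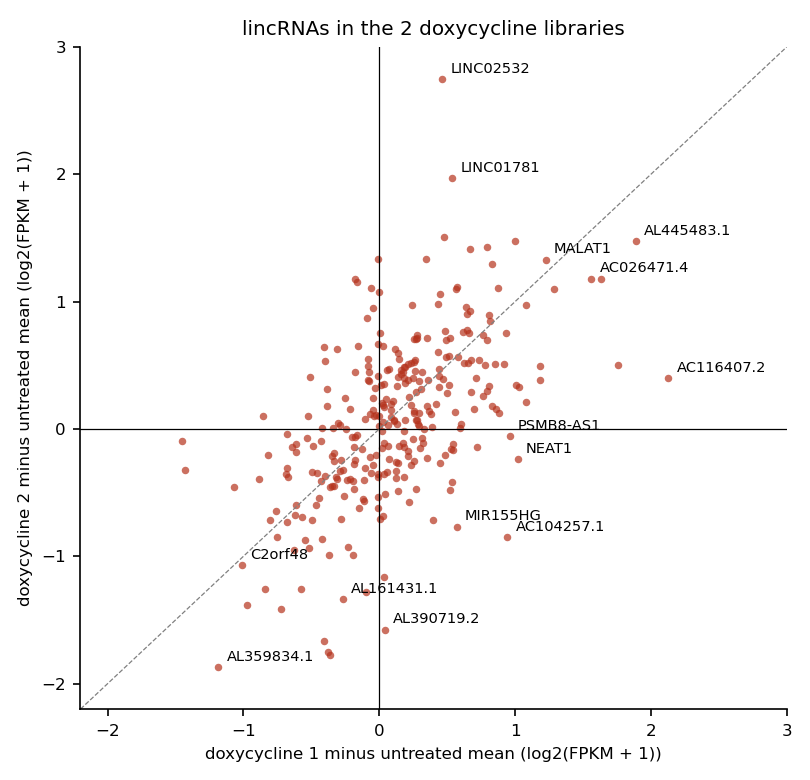
Log2(FPKM + 1) of doxycycline replicate 1 (horizontal) and replicate 2 (vertical), each minus the same untreated mean, for 304 lincRNAs, each point 1 RNA, with equality as the dashed line. MALAT1, AL445483.1, AC026471.4, AL359834.1 and C2orf48 lie far from 0 on both axes, while LINC02532 and AC116407.2 lie far out on 1 axis and NEAT1 and MIR155HG change sides. AL359834.1 and C2orf48 reached 1 FPKM only in the untreated mean, and LINC02532 and AC116407.2 only in the doxycycline mean, which fixed their direction.

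On the lower side, AL359834.1, AC108463.2, C2orf48, AL035461.2, AC148477.4, AL161431.1, AC093484.4 and AL139161.1 reached 1 FPKM only in the untreated mean, so their direction was fixed by the choice and their levels are a description. AL359834.1 (ENSG00000282849, chr1:200478020-200483604, minus strand) stood at 0.750 and 0.0856 FPKM with doxycycline, against 2.37 and 3.69 FPKM in untreated cells. It had 9 and 1 reads with doxycycline and 24 and 41 reads in untreated cells. AC108463.2 stood at 1.03 and 0.530 FPKM with doxycycline, against 3.06 and 2.93 FPKM in untreated cells, on 8 and 4 reads with doxycycline and 20 and 21 reads in untreated cells. Both were separated on few reads.

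C2orf48 (ENSG00000163009, chr2:10141382-10211725, plus strand) stood at 0.340 and 0.284 FPKM with doxycycline, against 1.59 and 1.81 FPKM in untreated cells. It had 16 and 13 reads with doxycycline and 63 and 79 reads in untreated cells, and the replicates of each group lay close together. RRM2, the ribonucleotide reductase subunit made in S phase, lies upstream on the same strand and stood at 2.00 and 9.06 FPKM with doxycycline, against 14.9 and 12.1 FPKM in untreated cells. AL035461.2 stood at 0.609 and 0.208 FPKM with doxycycline, against 2.29 and 1.53 FPKM in untreated cells, 1441 bases from the DNA helicase gene MCM8. MCM8 stood at 3.71 and 4.08 FPKM with doxycycline, against 8.43 and 8.03 FPKM in untreated cells (log2 difference -0.92 ± 0.17 SE, limma adjusted p = 0.0773). RRM2 and MCM8 were chosen after their values were seen. In a list of 22 replication and mitosis genes, both doxycycline libraries lay below both untreated ones for 22 (28.9% of all genes did so), with a median log2 difference of -1.41.

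Of the other lower lincRNAs, AC148477.4 stood at 1.25 and 0.396 FPKM with doxycycline, against 2.25 and 3.23 FPKM in untreated cells, and shares 334 exonic bases with GALNT9. AP001505.1 stood at 5.76 and 1.60 FPKM with doxycycline, against 10.2 and 5.83 FPKM in untreated cells, and its highest doxycycline library came near its lowest untreated one. AL161431.1 stood at 1.68 and 0.279 FPKM with doxycycline, against 2.33 and 2.14 FPKM in untreated cells. For AP001505.1 and AL161431.1, doxycycline replicate 2 carried most of the difference.

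AC093484.4 stood at 1.40 and 0 FPKM with doxycycline, against 2.28 and 2.08 FPKM in untreated cells, and a count of 0 allows up to 0.539 FPKM there. AL139161.1 stood at 0 and 1.15 FPKM with doxycycline, against 1.33 and 2.12 FPKM in untreated cells, on no more than 7 reads in any library, and a count of 0 allows up to 0.840 FPKM. A library with no read was seen for 5 of the 306 lincRNAs.

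Of the 95 well-read lincRNAs, those with a mean of at least 100 reads, 32 lay above in both doxycycline libraries (33.7%, beside 24.3% of all genes) and 25 below (26.3%, beside 28.9%). At an unadjusted limma p under 0.05 there were 10 higher and 8 lower, where 6.47% and 11.9% of all genes were. The next were chosen after their values were seen. AL365181.2 (chr1:156637783-156641004, minus strand), 386 bases from BCAN, stood at 8.32 and 7.66 FPKM with doxycycline, against 2.93 and 3.94 FPKM in untreated cells (log2 difference 1.03 ± 0.19 SE, limma adjusted p = 0.0789). LINC02035 stood at 2.44 and 2.51 FPKM with doxycycline, against 1.02 and 0.881 FPKM in untreated cells. ERVH-1, from an endogenous retrovirus, stood at 15.0 and 14.0 FPKM with doxycycline, against 7.79 and 8.72 FPKM in untreated cells (log2 difference 0.75). LINC02035 reached 1 FPKM only in the doxycycline mean, so its direction was fixed by the choice. The shares of the 95 include such members.

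MAPKAPK5-AS1 stood at 8.06 and 10.3 FPKM with doxycycline, against 4.87 and 4.74 FPKM in untreated cells, and shares 792 exonic bases with MAPKAPK5, which had a log2 difference of 0.33. AL355338.1 stood at 8.16 and 8.25 FPKM with doxycycline, against 12.5 and 13.5 FPKM in untreated cells (log2 difference -0.60). AC092171.2 stood at 8.0 and 5.63 FPKM with doxycycline, against 11.8 and 10.4 FPKM in untreated cells (log2 difference -0.65). None of these 6 passed after adjustment (limma).

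Position, which the rule did not use, was examined last. Of the 306 lincRNAs, 48 shared exonic bases with a tested gene, 46 of them with one on the other strand and 6 with one on the same strand, a few with both. Strandedness is not given in the sources used here, so reads over such bases cannot be told apart. The 48 had a median log2 difference of 0.09 and the other 258 one of 0.12.

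A coding gene on the other strand started within 2000 bases of the start of 85 lincRNAs, and 81 of these coding genes were tested. Of the 85 lincRNAs, 34 lay above in both doxycycline libraries (40.0%, beside 24.3% of all genes and 31.4% of all 306 lincRNAs) and 16 below (18.8%, beside 28.9% of all genes and 19.6% of the lincRNAs). Their median log2 difference was 0.15. The sign was the same for both genes in 45 of the 81 pairs. Both genes lay above in 10 pairs and both lay below in 6, while in 7 the lincRNA lay above and its coding partner below, and in 0 the reverse. Pairs share their libraries, so these are descriptions and not a test. The partners of the named lincRNAs gave both kinds: TP53TG1 with CROT and SNHG19 with TRAF7 lay on the same side, AC068870.2 and TLNRD1 on opposite sides. AC068870.2 reached 1 FPKM only in the doxycycline mean, which fixed its side. The counts of the 85 lincRNAs and of the pairs include such members.

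**Figure D5:**
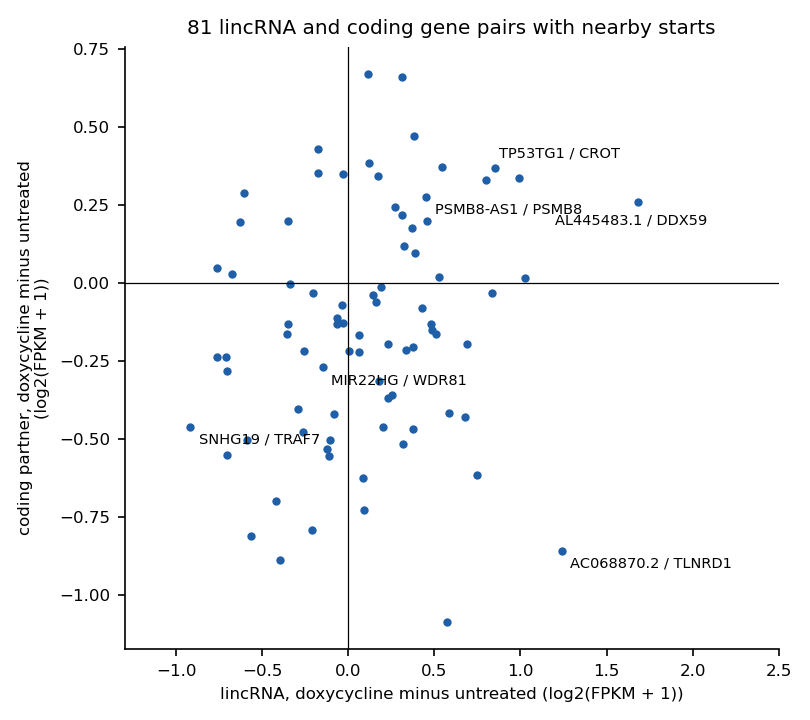
Log2 difference of a lincRNA, doxycycline minus untreated on the log2(FPKM + 1) scale (horizontal), against that of the coding gene on the other strand whose start lies within 2000 bases (vertical), for 81 pairs, each point 1 pair. The points lie on both sides of both zero lines, with the same sign in 45 of 81, and AC068870.2 with TLNRD1 stands out at the lower right. AC068870.2 reached 1 FPKM only in the doxycycline mean, which fixed its direction.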

How the data were processed

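Each of the 4 libraries came as 1 table of 58735 genes with gene type, length and a level deposited by the authors as FPKM, per the file headers. The submitters' processing notes list the tools limma, featureCounts 1.5.0-p3 and HISAT2 2.0.5 without saying what each did. How the authors set the library size and strand is likewise not given in the sources used here, nor is the build. The identifiers, coordinates and types of all 58735 genes were identical to GENCODE 29 on GRCh38, which was used for positions and transcript sequences. Promoters came from a RefSeq table on GRCh38.p14.

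Reads were recovered by dividing FPKM times length by the smallest step of each library, which gave whole numbers within 0.02 for 100% of genes. The FPKM rest on library sizes of 107.5% and 97.6% of the recovered reads with doxycycline and 97.2% and 101.0% in untreated cells. For a gene of 1000 bases, a library with no read allows up to 3 reads (counting error only), or 0.160 and 0.164 FPKM with doxycycline and 0.189 and 0.172 FPKM in untreated cells.

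All genes reaching a mean of 1 FPKM were tested with limma-trend (limma 3.58.1, R 4.3.3) on log2(FPKM + 1), which understates the change of low genes, two-sided, with Benjamini-Hochberg adjustment over the 12029 genes tested and a threshold of 0.05. The steps were tested on simulated data. Tables and figures were made with Python 3.11.15, pandas 2.3.3, numpy 2.4.6, scipy 1.17.1 and matplotlib 3.10.9. The members and gene lists were chosen with earlier results of these data known, so lists are given by counts and medians only. The genes named were USP35, the 10 most abundant members, the 10 largest positive and 10 largest negative differences among separated members, all members with a listed role, the 5 with the widest doxycycline pair, those next to the threshold, and coding partners of these. Other genes are marked in the text as picked with their values in view. Levels of 2 members linked to sex chromosomes are not printed, and figures show the other 304. Alternatives covered the pseudocount, the level filter, the scaling, the variance trend, limma-voom on recovered reads, a replicate block, and each library left out. Counts of separated members and genes outside the rule, PSMB9 and GALNT9 excepted, were run under these alternatives after seeing the data.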

Additional observations from a re-analysis of the deposited data

How the results depend on the processing

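The count of lincRNAs past the threshold was 0 and stayed 0 with a pseudocount of 0.1 FPKM, without the level filter, under the 3 other scalings, without the variance trend and with limma-voom. It was 2 (both higher) of 50 over genes of at least 5 FPKM, where 3.77% of all genes passed, and between 0 and 92 with 1 library left out. The replicate numbers are not established as pairs by the labels. With a replicate block limma called 23 lincRNAs (16 higher, 7 lower), or 7.52%, beside 6.52% of all genes. The deviations of same-numbered libraries correlated at 0.21 over all genes and 0.26 over the lincRNAs, which 2 pairs cannot settle. The median log2 difference of the lincRNAs, 0.11, was 0.16 with a pseudocount of 0.1, 0.043 over the 50 with at least 5 FPKM, 0.13 with median-of-ratios scaling, 0.12 with quantile normalization, 0.17 when scaled to reads outside mitochondrial genes and 0.21 with limma-voom. It ran from 0.0855 to 0.10 with 1 library left out. The median over all genes tested lay below that of the lincRNAs under each of these settings. LincRNAs above both untreated libraries numbered between 129 and 142, and those below between 85 and 112, with 1 library left out, where separation is easier to reach, and over all genes the shares then ran from 32.1% to 41.0% and from 35.3% to 45.5%.

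Of 48 lincRNAs named by the rule, 31 kept their direction under every alternative run and 17 turned under at least 1, where the fit over genes of at least 5 FPKM held only 17 of the 48. AC027031.2, at 0.00, turned to 0.037 with median-of-ratios, 0.11 with quantile, 0.089 with non-mitochondrial scaling and 0.047 with limma-voom. LINC00958 turned to 0.023, 0.080, 0.074 and 0.033 under the same 4 settings. AC104257.1 turned to -0.24 with a pseudocount of 0.1 FPKM and to -0.31 with limma-voom. With 1 library left out, the log2 differences ran from -0.074 to 0.38 for NORAD, -0.11 to 0.36 for SNHG8, -0.24 to 1.02 for NEAT1, -0.21 to 0.21 for AC027031.2, -0.11 to 0.079 for LINC00958, -0.39 to 0.13 for AL390728.6, -0.029 to 0.33 for EBLN3P, -0.48 to 0.52 for SNHG15, -0.085 to 0.50 for PWAR6, -0.77 to 0.57 for MIR155HG, -0.076 to 0.25 for LINC00665, -0.087 to 0.87 for PURPL, -0.54 to 0.18 for MIR210HG, -0.14 to 0.34 for EGOT, -0.054 to 0.96 for PSMB8-AS1, -0.85 to 0.94 for AC104257.1, -1.58 to 0.039 for AL390719.2, -0.25 to 0.80 for PSMB8 and -0.40 to 1.65 for TAP1. The causes were not tested. Groups of 2 libraries are too small for an outlier test. Depth limits the 211 lincRNAs with a mean under 100 reads most.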
